A study of Mus musculus with 16 samples.

Results

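Abca1, Abcg1, Abcg5, Abcb4, Abcb1a and Abcc2 encode ATP-binding cassette (ABC) transporters that move sterols, phospholipids, bile constituents and foreign compounds across the plasma membrane of liver cells. Their transcripts were followed here in mice given the coffee diterpenes cafestol and kahweol. The genes were taken by symbol: every probe whose only gene symbol in the array's annotation was one of these 6 was used. All 6 genes were found, on 7 of the 9596 probes of the array (2 probes for Abca1 and 1 for each of the others). They are 6 of the 6734 genes with such probes, and all 6 had values in all 8 treated mice.

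The animals were female APOE3Leiden mice, which carry a human transgene for the Leiden variant of apolipoprotein E3, in a line of which more than 99% of the background was C57BL6/JIco. Treated and control mice alike carried the transgene and ate diet W, a Western-type diet with 15 g of fat and 0.25 g of cholesterol per 100 g. The 8 treated mice received 0.04% cafestol and 0.02% kahweol by weight in it for 4 weeks from 10 weeks of age, and the 7 control mice received it alone. Liver poly(A) RNA of each treated mouse was labelled with Cy5 and hybridised on 2 cDNA arrays against control-diet liver RNA labelled with Cy3, which gave 16 arrays. No label names the control mice behind an array. The labels do not say which promoter drives the transgene.

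Each value is a log2 ratio of the channels, so it compares the diets for 1 gene and holds no level: neither the order of the 6 genes by abundance nor the liver's marker levels can be read from it. No label or header states which channel was divided by which, and signs are printed as deposited. The sides were marked by a pair of enzyme genes far from 0. Gstm1, a glutathione S-transferase, had a mean of -2.48 ± 0.23 (SD, n = 8) and Cyp7a1, the rate-limiting enzyme of classical bile acid synthesis, one of 1.56 ± 0.38 (SD, n = 8). "Above 0" therefore means the side of Cyp7a1 and "below 0" the side of Gstm1. No dyes were swapped, so a dye effect on a probe cannot be told apart from the diet. In whole liver, fewer cells of a type and less RNA per cell cannot be told apart either.

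Between 8094 and 9314 probes had a value on an array. Ratios had been rounded to 1 decimal as folds of 1 or more, with the sign giving the side of 0. The smallest step away from 0 is therefore 0.14 on the log2 scale (a 1.1-fold ratio), and 31.8% of all values were exactly 0. The mouse identifiers in the labels begin with SY (4 mice) or TP (4 mice), and the array codes with c3z or bl7. All SY mice except SY518Z, with 1 array of each code, had c3z arrays, and all TP mice had bl7 arrays. What these letters stand for is not given, so SY and TP are treated as a possible batch. The lowest correlation between the arrays of a mouse was 0.75, whereas the lowest between any pair of arrays was 0.15. The highest between arrays of different mice was 0.81, so correlations within and between mice overlapped in range.

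At the blood-facing membrane of hepatocytes, ABCA1 hands cholesterol and phospholipid to apolipoprotein A-I. In cells that make it, ABCG1 passes cholesterol on to formed high-density lipoprotein. At the canalicular membrane of hepatocytes, ABCG5 paired with ABCG8 secretes sterols into bile, ABCB4 moves phosphatidylcholine and ABCB1A (P-glycoprotein) exports drugs. ABCC2 there exports glucuronide and glutathione conjugates, bilirubin conjugates among them. Their genes are known targets of nuclear receptors: liver X receptors (LXR) for the sterol transporters, the farnesoid X receptor (FXR) for Abcb4 and Abcc2, and the pregnane X receptor (PXR) for Abcb1a and Abcc2. Cafestol is known as an agonist of FXR and PXR.

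The diet question was whether each transporter's ratio differed from 0. Abcg5 stood farthest from 0, at 0.44, and Abcc2 also lay above 0, at 0.12. Abcg1 and Abca1 lay below 0, at -0.20 and -0.080. Abcb4 and Abcb1a did not pass the test, and their SY and TP mice lay on different sides of 0 on average. Thus 4 of the 6 genes were called at an adjusted p under 0.05 (limma on the mean of each mouse, n = 8, two-sided, Benjamini-Hochberg over all 8348 genes and unnamed probes). Of all features tested, 43.4% were called, 18% above 0 and 25.4% below it, so with 6 genes a count of 2 above and 2 below says little about the transporters as a group. The share of calls above 0 was 41.5%, and 49.4% with each array centred on its mean. The p-values measure the spread of the ratios between treated mice. They leave out that of the control mice if all arrays shared a control pool, which is not stated. With control mice modelled as varying like the treated ones, 1 of the 6 genes, Abcg5, was called.

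**Figure D1:**
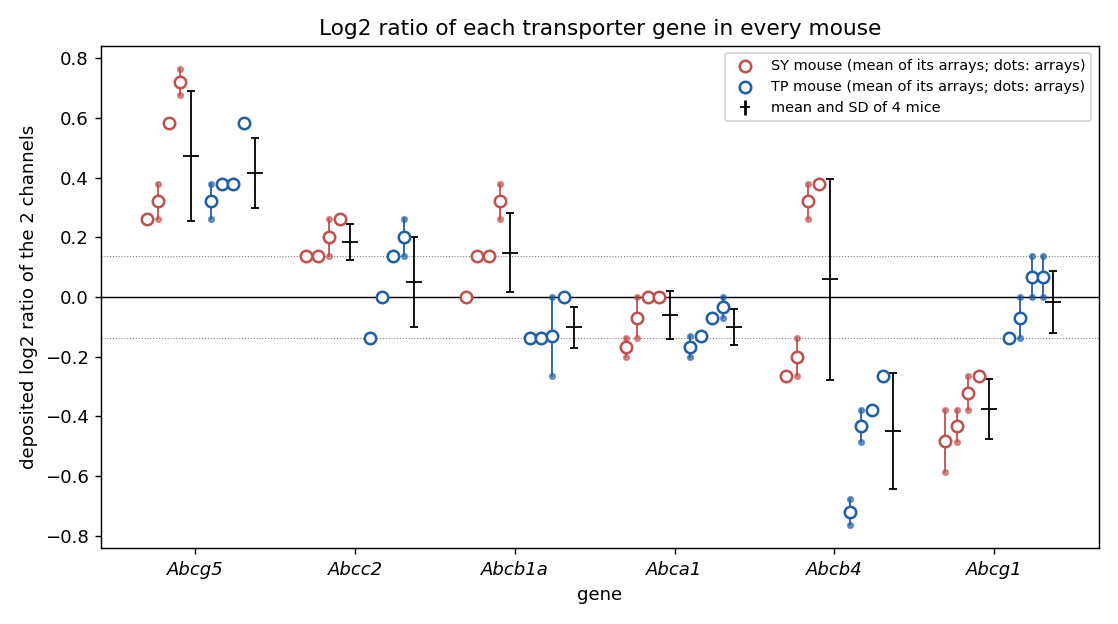
Deposited log2 ratio (vertical axis) of the 6 transporter genes (horizontal axis) in every mouse. Open circles are mice (SY red, TP blue), small dots their single arrays, black bars the mean and SD of 4 mice, and dotted lines the smallest step from 0. All 8 circles of Abcg5 lie above 0, and the SY and TP circles of Abcg1 do not overlap.

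Abca1, the exporter to apolipoprotein A-I, had values close to 0 in every mouse. They were -0.17 in SY518Z, -0.069 in SY521RL and 0 in both SY522ROB and SY524ROB+L. In the TP mice they were -0.17 in TP4205, -0.13 in TP4215, -0.069 in TP4163 and -0.034 in TP4168. No mouse was above 0. The SY and TP ranges of these gene values overlapped almost wholly, but the values of SY and TP mice rest on unequal sets of probes, as described below. The mean was -0.080 ± 0.069 (SD, n = 8), a 1.06-fold ratio, with a standard error of 0.030 and an adjusted p of 0.0485 (limma). That size is below the smallest step that the rounding keeps on 1 array. The call was lost when any of 6 mice was left out (SY518Z, SY521RL, TP4163, TP4168, TP4205 or TP4215; adjusted p up to 0.122), and with each array centred on its mean (-0.063, adjusted p = 0.0974).

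The 2 probes of Abca1 were unequal in coverage. One had values on all 16 arrays, with a mean of -0.19 on the 9 bl7 arrays and -0.039 on the 7 c3z arrays. The other had values on all 9 bl7 arrays, with a mean of -0.031, and on 0 of the 7 c3z arrays. The gene's value in TP mice is therefore an average of both probes, and that of SY mice, apart from the bl7 array of SY518Z, rests on 1. Of the 9596 probes, 206 had this pattern of blanks and 255 the opposite one. With single probes in place of gene means, the fully covered probe had a mean of -0.13 (adjusted p = 0.0184, limma).

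Abcg1, the exporter to high-density lipoprotein, separated the SY from the TP mice. It was -0.48 in SY518Z, -0.43 in SY524ROB+L, -0.32 in SY521RL and -0.26 in SY522ROB. It was -0.14 in TP4168 (1 array, the other blank), -0.069 in TP4163, and 0.069 in both TP4205 and TP4215. All SY mice were lower than all TP mice, and the latter lay within 1 step of 0. The share of all features that separate the series this fully was not counted, for this or any later gene. Between SY and TP mice, 2067 of 8348 features had an unadjusted p under 0.05 (limma). The overall mean was -0.20 ± 0.21 (SD, n = 8), a 1.15-fold ratio with a standard error of 0.062 (adjusted p = 0.0235, limma), and 6 of 8 mice were below 0. This call was lost without any of the 4 SY mice (adjusted p from 0.0508 to 0.0632).

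Within the series, Abcg1 had a mean of -0.37 ± 0.10 (SD, n = 4) in SY mice (adjusted p = 0.00975 in SY mice alone) and -0.017 ± 0.10 (SD, n = 4) in TP mice (adjusted p = 0.781 in TP mice alone, limma). The difference of -0.36 (standard error 0.069) was called in the comparison of SY with TP mice (adjusted p = 0.0171, limma). Of the 6 transporters, Abcg1 alone was called there, against 5.7% of all features tested. Of the 476 features called, 108 were higher in SY mice. The call was lost without SY521RL, SY524ROB+L or TP4205 (adjusted p from 0.0682 to 0.0727) and when only 1 array of each mouse was used.

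Abca1 and Abcg1 are also made by macrophages. Of 19 markers of Kupffer cells and macrophages, 13 were tested: 9 were called below 0, 1 above 0 and 3 not at all. Their median was -0.17, between -0.65 for Cd68, a lysosomal macrophage protein, and 0.17 for Cd163, a haemoglobin scavenger receptor. The median of the list was -0.26 in SY mice and -0.19 in TP mice. Between SY and TP mice, 1 of the 13 was called, against 5.7% of all features tested. It was Adgre1, with -0.18 in SY and 0.13 in TP mice (adjusted p = 0.0483, limma). The macrophage markers thus lay mostly on the same side as Abca1 and Abcg1, and their part in these results was not tested. In the other lists of cell markers, the calls above and below 0 were 4 and 3 of 11 for hepatocytes, 1 and 3 of 7 for bile duct, 1 and 3 of 9 for endothelium, 0 and 6 of 11 for stellate cells, 1 and 6 of 10 for lymphocytes, and 1 and 0 of 2 for intestine. Over all features tested, 18% were called above 0 and 25.4% below it, and the median was -0.02. The calls between SY and TP mice were 1 of 11 for hepatocytes, 2 of 7 for bile duct, 1 of 2 for intestine and 0 for the other 3 lists.

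Abcg5, the sterol half-transporter of bile, was the only transporter of the 6 with every mouse on the same side. The sequence of its promoter window in RefSeq is shown because it is the member farthest from 0 (GRCm38.p6, chr17:84683012-84683261, minus strand, the 250 bases before the gene's start, 5′ to 3′). Capitals mark the matches to a TATA motif (TATAAA) and to the core of GATA-factor sites (GATAA), searched on both strands.

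Abcg5: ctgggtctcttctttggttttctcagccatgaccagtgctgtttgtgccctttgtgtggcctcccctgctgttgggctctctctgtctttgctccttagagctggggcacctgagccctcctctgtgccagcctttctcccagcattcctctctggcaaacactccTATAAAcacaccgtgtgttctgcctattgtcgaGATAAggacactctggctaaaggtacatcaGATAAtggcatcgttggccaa

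This window held 2 matches to GATAA, 1 to TATAAA and 0 to AGGTCA, the half-site that many nuclear receptors bind. Among the first 250 bases of 32851 RefSeq promoter entries, not cut at each gene's start, 22.6% held GATAA, 12.4% TATAAA and 14% AGGTCA. A match describes these letters only, and the arrays measured no binding. Abcg8, the partner of Abcg5, is not analysed here.

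The Abcg5 values were 0.26 in SY524ROB+L, 0.32 in SY522ROB, 0.585 in SY521RL and 0.72 in SY518Z. In the TP mice they were 0.32 in TP4205, 0.38 in both TP4163 and TP4215, and 0.585 in TP4168. All 8 mice were above 0, from 0.26 to 0.72, and the range of the TP mice lay within that of the SY mice. The mean was 0.44 ± 0.16 (SD, n = 8), a 1.36-fold ratio with a standard error of 0.050 (adjusted p = 4.23e-05, limma). SY mice averaged 0.47 ± 0.22 and TP mice 0.42 ± 0.12 (SD, n = 4 each), a difference of 0.057 that did not pass the test (adjusted p = 0.742). The gene was called in SY mice alone (adjusted p = 0.0213) and in TP mice alone (adjusted p = 0.00742). Leaving out any mouse kept the call. When a change of at least 1.2-fold was required, it was not called (adjusted p = 0.10).

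Abcb4, the phosphatidylcholine transporter of the canaliculus, and Abcb1a, a drug exporter, are close relatives and lie near each other on chromosome 5, with Abcb1b, a duplicate of Abcb1a, between them in the RefSeq table (GRCm38.p6). Their promoter windows are shown because the ratios of these neighbouring genes were compared with each other. The window of Abcb4 is chr5:8893471-8893613, plus strand, where 143 bases precede the start, and that of Abcb1a is chr5:8566841-8567090, plus strand, with 250 bases. No capitals appear, since neither window held a match to any of these 3 motifs on either strand.

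Abcb4: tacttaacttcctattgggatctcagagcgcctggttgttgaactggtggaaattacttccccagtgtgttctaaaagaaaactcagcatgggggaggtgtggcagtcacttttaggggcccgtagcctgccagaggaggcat

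Abcb1a: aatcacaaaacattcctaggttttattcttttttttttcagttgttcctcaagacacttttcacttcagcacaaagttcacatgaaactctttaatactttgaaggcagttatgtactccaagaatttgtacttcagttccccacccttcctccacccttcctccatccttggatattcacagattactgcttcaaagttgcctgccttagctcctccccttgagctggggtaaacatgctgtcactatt

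Among the first 143 bases of all RefSeq promoter entries, 7.02% held TATAAA, 15.1% GATAA and 8.14% AGGTCA. Those windows were not cut at each gene's start, as that of Abcb4 was, so the positions are not alike. A lack of matches says only that these letters were not in these windows. Each window shown rests on 1 RefSeq entry, and other transcript starts of the genes, which may lie elsewhere, were not looked at.

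Abcb4 varied more between mice than any other of the 6 genes. It was -0.26 in SY522ROB, -0.20 in SY518Z, 0.32 in SY521RL and 0.38 in SY524ROB+L. It was -0.72 in TP4168, -0.43 in TP4205, -0.38 in TP4163 and -0.26 in TP4215. All TP mice were below 0, whereas the SY mice split into a pair below and a pair above. The mean was -0.19 ± 0.37 (SD, n = 8; standard error 0.10), and the gene was not called (adjusted p = 0.146, limma). In TP mice alone the mean was -0.45 ± 0.20 (SD, n = 4; adjusted p = 0.0141), and in SY mice alone 0.059 ± 0.34 (SD, n = 4; adjusted p = 0.773).

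The difference of Abcb4 between SY and TP mice was 0.51 (standard error 0.15), and it missed the threshold (adjusted p = 0.0591, limma). Without SY518Z it was 0.59 and was called (adjusted p = 0.0272). The diet test also crossed the threshold under other models: adjusted p = 0.0412 with the identifier series as a term, 0.0494 with all 16 arrays blocked by mouse, 0.0458 without SY521RL and 0.0296 without SY524ROB+L. Between the arrays of a mouse, Abcb4 differed by at most 0.13 and was equal in 4 of 8 mice, so the arrays agreed far better than the mice.

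Abcb1a lay near 0, with its SY mice at or above 0 and its TP mice at or below 0. It was 0 in SY518Z, 0.14 in both SY521RL and SY522ROB, and 0.32 in SY524ROB+L. It was -0.14 in both TP4163 and TP4215, -0.13 in TP4205, and 0 in TP4168. The mean of 0.024 ± 0.17 (SD, n = 8; standard error 0.051) was not called (adjusted p = 0.727, limma). SY mice averaged 0.15 ± 0.13 and TP mice -0.10 ± 0.068 (SD, n = 4 each). Their difference of 0.25 (standard error 0.070) missed the threshold (adjusted p = 0.0567), and it was called without SY518Z (0.30, adjusted p = 0.0169), with robust moderation (adjusted p = 0.0467) and with centred arrays (adjusted p = 0.0431).

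The tested genes around this pair, in chromosome order, were Slc25a40, Abcb1a, Abcb1b, Abcb4, Crot and Dmtf1. They were looked at after the values of the members had been seen. Abcb1b, the drug exporter that rodents carry beside Abcb1a, was -0.26 in SY518Z and SY522ROB, 0.069 in SY524ROB+L and 0.14 in SY521RL. It was -0.72 in TP4168, -0.49 in TP4163, -0.43 in TP4205 and -0.26 in TP4215. The mice took nearly the same order for Abcb1b as for Abcb4, and both genes were lowest in TP4168. Abcb1b was called below 0 (mean -0.28 ± 0.28, SD, n = 8; adjusted p = 0.0146, limma), whereas its difference between SY and TP mice of 0.40 missed the threshold (adjusted p = 0.0567).

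Crot, a peroxisomal carnitine octanoyltransferase and no transporter, showed the widest split. It ranged from 0 to 0.26 in the SY mice and from -1 to -0.43 in the TP mice, without overlap. The difference of 0.83 was called (adjusted p = 0.00635, limma), while the diet mean of -0.22 ± 0.49 (SD, n = 8) was not (adjusted p = 0.204). The outer neighbours were not called between SY and TP mice. The SY minus TP difference was -0.025 for Slc25a40, a mitochondrial carrier (adjusted p = 0.869), and 0.066 for Dmtf1, a transcription factor (adjusted p = 0.637). Slc25a40 had values in 7 mice and none in TP4168, the lowest mouse for Abcb1b and Abcb4.

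**Figure D2:**
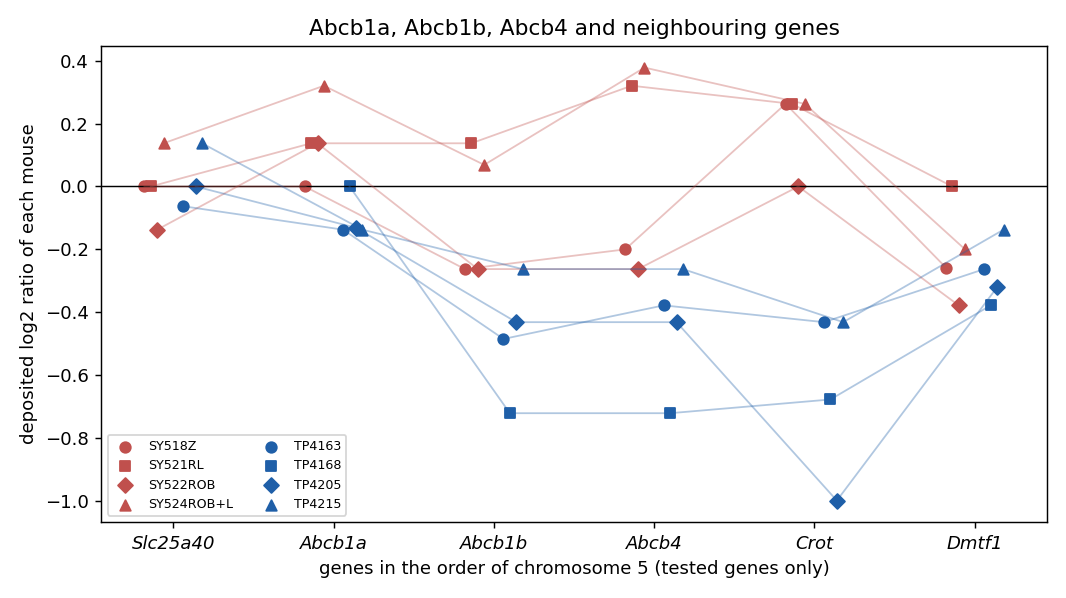
Deposited log2 ratio of each mouse (vertical axis) for Abcb1a, Abcb1b, Abcb4 and the tested genes beside them in chromosome order (horizontal axis, not to scale). Each line joins the values of 1 mouse (SY red, TP blue, mean of its arrays), and TP4168 has no value for Slc25a40. TP mice lie at or below -0.26 for Abcb1b, Abcb4 and Crot, while Slc25a40 and Dmtf1 mix both series.

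Over the 8 mice, Abcb4 had a Pearson r of 0.98 with Abcb1b (Spearman's rho 0.93), and this was 0.95 after the SY and TP means were removed. With Abcb1a its r was 0.72 (rho 0.62) and 0.33 after that removal. With Crot the values were 0.78 (rho 0.93) and 0.41. Abcb1a had an r of 0.66 with Abcb1b and 0.73 with Crot, and of 0.15 and -0.038 after the removal, so its likeness to these genes lay mainly in the split between SY and TP mice. These are descriptions over 8 mice that are split into series, and the genes were read from the same arrays. Whether the arrays also shared control RNA is not given. Transcripts of paralogs can also bind each other's cDNA probes. The probe sequences were not used here, so shared hybridisation of Abcb1a, Abcb1b and Abcb4 was not tested.

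Abcc2, the exporter of conjugates, had small values, most of them above 0. It was 0.14 in both SY518Z and SY521RL, 0.20 in SY524ROB+L and 0.26 in SY522ROB. It was -0.14 in TP4215, 0 in TP4205, 0.14 in TP4163 and 0.20 in TP4168. All SY mice were above 0, and TP mice lay on both sides. The mean was 0.12 ± 0.13 (SD, n = 8), a 1.08-fold ratio with a standard error of 0.042 (adjusted p = 0.0392, limma), and 6 of 8 mice were above 0.

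The SY mice averaged 0.18 ± 0.060 for Abcc2 (SD, n = 4; adjusted p = 0.0175 alone) and the TP mice 0.050 ± 0.15 (SD, n = 4; adjusted p = 0.553 alone). The difference of 0.13 was not called (adjusted p = 0.275, limma), so the series were not shown to differ. The diet call of Abcc2 was lost without SY518Z, SY521RL, SY522ROB, SY524ROB+L, TP4163 or TP4168 (adjusted p up to 0.0970).

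**Figure D3:**
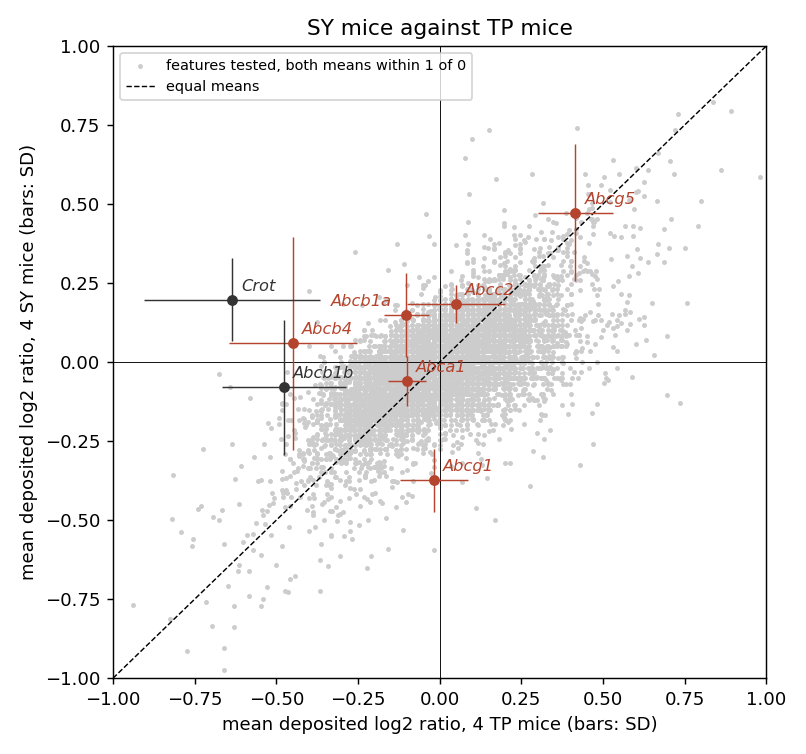
Mean deposited log2 ratio of the 4 SY mice (vertical axis) against that of the 4 TP mice (horizontal axis). Grey dots are the features tested whose means both lie within 1 of 0, labelled points are the 6 transporters (red) with Abcb1b and Crot (black), bars are SDs over 4 mice and the dashed line marks equal means. Abcg1 lies below the line, while Abcb4, Abcb1b and Crot lie above it.

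The agreement between the arrays of a mouse differed by gene. Their values were equal in 6 of 8 mice for Abcc2 and for Abcb1a, in 5 of 8 for Abcg5, in 4 of 8 for Abca1 and for Abcb4, and in 1 of the 7 mice with 2 values for Abcg1. The SD within a mouse was between 0.044 (Abcc2) and 0.094 (Abcg1), against a median of 0.069 over all features, which Abcg1 and Abcb1a (0.072) exceeded. The SD between mice was larger for every member, from 0.069 (Abca1) to 0.37 (Abcb4), against a median of 0.11 over all features.

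Whether the transporters differed from each other was asked within mice, with an exact sign-flip permutation test of each of the 15 pairs (two-sided, Benjamini-Hochberg over the pairs, n = 8). The smallest p that 8 mice allow is 0.0078. Abcg5 differed from each of the other 5 genes (adjusted p = 0.0391 in each pair, exact test). Its ratio was higher by 0.52 ± 0.20 (SD) than that of Abca1 and by 0.64 ± 0.32 than that of Abcg1, in 8 of 8 mice for both. It was higher by 0.33 ± 0.20 than Abcc2 in 8 of 8 mice, and by 0.64 ± 0.43 than Abcb4 and by 0.42 ± 0.25 than Abcb1a in 7 of 8 mice. Abcc2 was higher than Abca1 by 0.20 ± 0.093 in 7 of 8 mice (adjusted p = 0.0391, exact test).

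The other 9 pairs had adjusted p-values from 0.0938 to 1. In the order of the means (Abcg5, Abcc2, Abcb1a, Abca1, Abcb4, Abcg1), the only neighbours that differed beyond their spread were therefore Abcg5 and Abcc2. Abcg1 and Abcb4 had almost equal means, yet differed within mice with an SD of 0.53, since Abcg1 was lowest in SY mice and Abcb4 in TP mice. Without 1 mouse, 7 mice allow no p below 0.0156, and 0 to 5 pairs were called. The 5 were called without SY524ROB+L, and 0 without any of the other 7 mice.

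The rest of the ABC family gives the setting. The counts of this list and of those below stand beside 18% called above 0 and 25.4% below it over all features tested. Of 43 other ABC genes listed, 24 were tested: 5 were called above 0, 9 below and 10 not at all, with a median of -0.07. Above 0, the farthest were Abcd3, a peroxisomal fatty acid transporter (0.29 ± 0.22, adjusted p = 0.00289), and Abcc5, a nucleotide exporter (0.26 ± 0.13, adjusted p = 0.000451). Abca8b (0.21 ± 0.17, adjusted p = 0.00686) and Abcf3 (0.10 ± 0.080, adjusted p = 0.0227) followed. All these values are means ± SD of 8 mice, with limma's adjusted p.

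**Figure D4:**
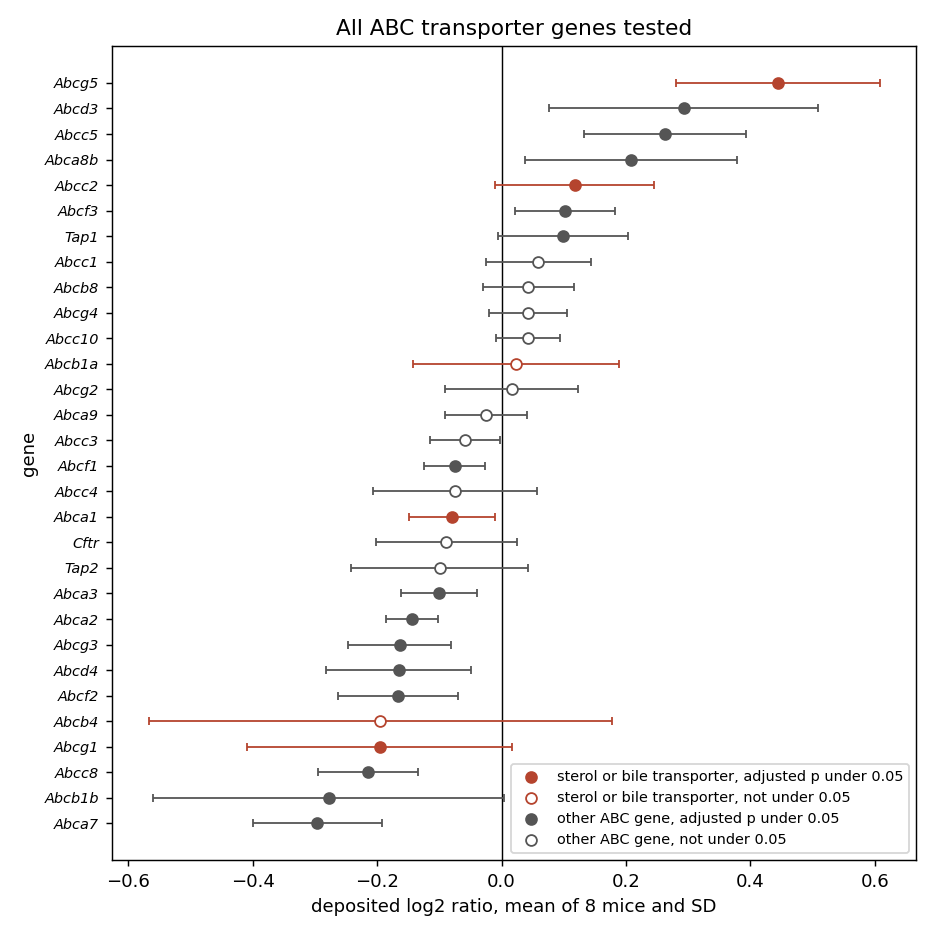
Mean deposited log2 ratio with SD over 8 mice (horizontal axis) of the 30 ABC genes tested (vertical axis), the 6 sterol and bile transporters in red and the others in grey. Filled points have an adjusted p under 0.05 (limma). Abcg5 lies highest at 0.44 and Abca7 lowest at -0.30.

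Below 0, Abca7, a phospholipid exporter related to Abca1, was farthest, at -0.30 ± 0.10 (adjusted p = 7.51e-05, limma), with all 8 mice between -0.43 and -0.14. Next to Abcb1b came Abcc8, the sulfonylurea receptor (-0.21 ± 0.081, adjusted p = 0.000285), and Abcf2 (-0.17 ± 0.097, adjusted p = 0.00257). Among basolateral exporters of conjugates, Abcc3 (-0.059, adjusted p = 0.106) and Abcc4 (-0.075, adjusted p = 0.173) were not called. In the comparison of SY with TP mice, 1 of the 24 was called, against 5.7% of all features tested. This was Tap2, a peptide transporter, with 0.017 in SY and -0.22 in TP mice (adjusted p = 0.0451, limma).

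Among carriers and receptors of sterols and bile acids outside the ABC family, 10 of 30 listed genes were tested, of which 3 were called above 0, 1 below and 6 not at all (median 0.02). Scp2, a sterol carrier protein, lay at 0.60 ± 0.19 (adjusted p = 1.28e-05), Slco2b1, an organic anion uptake carrier, at 0.26 ± 0.14 (adjusted p = 0.000662), and Scarb2, a lysosomal membrane protein, at 0.14 ± 0.079 (adjusted p = 0.00487; limma). Scarb1, the receptor for high-density lipoprotein, was not called (-0.060, adjusted p = 0.161).

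Npc2, which carries cholesterol out of lysosomes, lay at -0.30 ± 0.20 (adjusted p = 0.00196, limma). Like Abcg1, it was lower in every SY mouse (-0.54 to -0.38) than in every TP mouse (-0.26 to 0.069), and the difference was called (adjusted p = 0.0290). That call was lost in 6 of the 8 fits that left out 1 mouse.

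Genes that share the receptors of these transporters lay on both sides of 0, as did all features tested (18% called above and 25.4% below). Of 20 listed LXR targets, 13 were tested: 3 were called above 0, 6 below and 4 not at all (median -0.08). Abcg5 above and Abca1 and Abcg1 below are among these. The other 2 above were Cyp7a1 and Mlxipl, a glucose-responsive transcription factor (0.67 ± 0.15, adjusted p = 2.46e-06). Below 0 lay Pltp, the phospholipid transfer protein (-0.66 ± 0.15, adjusted p = 2.46e-06), Lpl, lipoprotein lipase (-0.47 ± 0.24, adjusted p = 0.000244), Apoe (-0.41 ± 0.12, adjusted p = 1.64e-05) and Scd1, a fatty acid desaturase (-0.33 ± 0.24, adjusted p = 0.00222; limma). The transgene is human APOE, and whether its transcript binds the mouse Apoe probe was not tested.

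Of 22 listed FXR targets, 12 were tested: 6 were called above 0, 2 below and 4 not at all (median 0.09). Abcc2 is among the 6, and Abcb4 among those not called. The farthest above were Slc27a5 (0.50 ± 0.19, adjusted p = 3.89e-05) and Baat (0.30 ± 0.099, adjusted p = 6.42e-05), which activate bile acids and join them to amino acids. Apoa5, an apolipoprotein (0.23 ± 0.24, adjusted p = 0.0183), and Fgb, a fibrinogen chain (0.23 ± 0.11, adjusted p = 0.000540), came next. Below 0 were Pltp and Fgf15, a gut hormone that represses bile acid synthesis (-0.18 ± 0.068, adjusted p = 0.000664; limma).

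Of 23 listed targets of PXR and its relative CAR, 13 were tested: 4 were called above 0, 2 below and 7 not at all (median 0.10). Abcc2 is among the 4, and Abcb1a among those not called. The cytochrome P450 genes Cyp2b9 (0.43 ± 0.43, adjusted p = 0.0113) and Cyp2b10 (0.41 ± 0.36, adjusted p = 0.00592) and Fmo5, a monooxygenase (0.35 ± 0.36, adjusted p = 0.0144), lay above 0. Gstm1 and Gsta2, another glutathione S-transferase (-1.11 ± 0.30, adjusted p = 3.56e-06; limma), lay below.

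Of 28 listed receptors and regulators of the transporters, 15 were tested, with 4 above 0, 3 below and 8 not called (median 0.04). Nr1i2 (PXR) lay at 0.22 ± 0.20 (adjusted p = 0.00938) and Nr1h4 (FXR) at 0.19 ± 0.15 (adjusted p = 0.00515; limma). Nr1h3 (LXR alpha) was not called, with per-series means of 0.017 and -0.017. The coactivator Ppargc1a (0.20 ± 0.054, adjusted p = 0.000194) and Hnf4a, a liver transcription factor (0.10 ± 0.080, adjusted p = 0.0227), were the other 2 above. Below 0 lay Ezr (ezrin), which links membrane proteins to actin (-0.28 ± 0.069, adjusted p = 2.80e-05), Rab11a, a GTPase of recycling endosomes (-0.18 ± 0.090, adjusted p = 0.00136), and Rxrb, a partner of these receptors (-0.086 ± 0.049, adjusted p = 0.0226; limma).

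Of 28 listed genes that esterify, hydrolyse or make cholesterol, 13 were tested, with 1 above 0, 3 below and 9 not called (median 0.02). Sc5d, a late enzyme of cholesterol synthesis, lay at 0.12 ± 0.12 (adjusted p = 0.0236). Ebp, another late enzyme, lay at -0.39 ± 0.14 (adjusted p = 4.88e-05), Nceh1, a cholesteryl ester hydrolase, at -0.14 ± 0.082 (adjusted p = 0.00388), and Lcat, which esterifies plasma cholesterol, at -0.14 ± 0.10 (adjusted p = 0.00775; limma).

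For each transporter, the 3 named genes with the most similar pattern over the 8 mice were taken by Pearson r, among about 3338 genes with a between-mouse SD of at least 0.1. Abca1 was closest to Vldlr (r = 0.98), Ccl17 (0.97) and Ets2 (0.97). Abcg1 was closest to Fjx1 (0.98), Slc22a2 (0.96) and Gpat4 (0.96). Of these, Fjx1 and Gpat4 were also called between SY and TP mice (adjusted p = 0.0328 and 0.0163, limma). Abcb4 was closest to Abcb1b, followed by Tsc22d1 (0.94) and Sec61a1 (0.93).

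Abcb1a was closest to Wbp2 (0.99), Atg101 (0.99) and Camk2n2 (0.99). Camk2n2 was called between SY and TP mice (adjusted p = 0.0489, limma), while Atg101 (adjusted p = 0.0526) and Wbp2 (adjusted p = 0.105) were not. Abcc2 was closest to Slc25a25 (0.97), Mep1a (0.95) and Gnb5 (0.94), and Abcg5 to Ldhd (0.94), Rgn (0.91) and Bola3 (0.89). Of these 3, Rgn, a calcium-binding protein of hepatocytes, had a mean of 0.73 ± 0.27 (SD, n = 8). The highest of so many coefficients over 8 mice is large by its choice, and the folds were rounded to 1 decimal, so these are descriptions of the mice.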

How the data were processed

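The deposited values are log2 ratios of 16 two-colour cDNA arrays (GEM 2.03, Incyte), 2 for each of 8 treated mice, made by the authors from the 2 channels. How the authors normalized, treated background or left blanks, and which way the ratio runs, is not given in the sources. All 144660 values were log2 of folds with 1 decimal, with the sign giving the side of 0. Each of the 16 arrays had median 0, and no further normalization was applied. With 31.8% of all values at exactly 0 after rounding, a median of 0 does not show that an array was centred. Centring on the array mean is therefore among the alternatives given below. Nothing says how control RNA was pooled.

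Genes were named from the platform annotation: 7407 probes had 1 symbol, 437 several and 1752 none; 7330 matched a RefSeq table (GRCm38.p6) by Entrez identifier and 0 symbols changed. Probes of a gene were averaged, then the arrays of a mouse. Features with values in at least 6 of 8 mice were kept (8348 tested, 575 left out). The mean was tested against 0, and SY against TP mice, with limma 3.58.1 (lmFit, eBayes) in R 4.3.3, two-sided, Benjamini-Hochberg over all features, threshold 0.05; the scripts were tested on simulated data. Both tests measure only the spread between these mice. The members, gene lists and comparisons were chosen with earlier results of these data known. Named genes were all 6 members, of each list up to 4 called genes farthest from 0 in each direction, the 3 genes most like each member, and Gstm1 and Cyp7a1; others, such as Crot, Scarb1, Abcc3 and Tap2, were named after their values were seen. Promoter windows came from RefSeq, which held 5 of the 6 members. Figures used matplotlib 3.10.9.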

Additional observations from a re-analysis of the deposited data

Results flagged for a closer look

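Abcb1a in TP4168 had a value of 0 while the other TP mice lay at -0.14, -0.14 and -0.13. The gap of TP4168 thus took nearly the whole range of the 4 TP mice. The -0.13 belongs to TP4205 and is the mean of unequal arrays, at 0 and -0.26. An array of TP4205 therefore had the same value as TP4168. The threshold for such gaps is passed by chance in about 1 of 20 groups. More than 1 group was searched, so a flag can arise by chance alone. The next step of the rounded ratios below 0 is -0.14.

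The diet ratio of Abcg1 differed between SY and TP mice by -0.36, a difference that was itself tested (adjusted p = 0.0171, limma). It is the only transporter of the 6 for which this difference was called.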

How the results depend on the processing

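Abcg5 kept its sign and its call in every alternative except the 1.2-fold minimum (0.44, adjusted p = 0.10). With control RNA modelled as an equal mix of 7 mice as variable as the treated mice, 1811 features and 1 member were called, and Abca1 (-0.080, adjusted p = 0.219), Abcg1 (-0.20, 0.147) and Abcc2 (0.12, 0.195) were not. With the 1.2-fold minimum, 123 features and 0 members were called (325 and 1 at an unadjusted p under 0.05), and Abca1 (-0.080), Abcg1 (-0.20) and Abcc2 (0.12) each had an adjusted p of 1.

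In the diet test Abca1 lost its call when centred (-0.063), on first arrays (-0.067, adjusted p = 0.114), with robust moderation (-0.080, 0.0508), in SY (-0.059, 0.304) or TP mice alone (-0.10, 0.0697), and without the bl7 array of SY518Z (-0.076, 0.0570). Abcc2 lost it on second arrays (0.10, 0.0747) and in TP mice alone (0.050), as did Abcg1 in TP mice (-0.017). Abcb4 gained one when blocked by mouse or with the series as a term (-0.19 in both) and in TP mice alone (-0.45), and turned sign in SY mice (0.059). Abcb1a turned sign in TP mice (-0.10) and without SY524ROB+L (-0.019). SY mice alone gave 2159 of 8668 features and 3 members, and TP mice alone 3168 of 8462 and 2.

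Between SY and TP mice, leaving out the bl7 array of SY518Z, after which array code and series are the same grouping, gave 940 features and 3 members (Abcb1a 0.25, Abcb4 0.52). Centring gave 604 features and 2 members (Abcb1a 0.25), and robust moderation 580 and 2 (Abcb1a 0.25), against 476 and 1. First arrays gave 0 features (1467 at an unadjusted p under 0.05) and second arrays 228, with 0 members for both (Abcg1 -0.38 and -0.37, adjusted p = 0.114 and 0.0782; 3 members at an unadjusted p under 0.05). Abcg5 turned sign without SY518Z (-0.026).

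Leaving out 1 mouse gave diet ranges of -0.091 to -0.067 (Abca1), -0.23 to -0.15 (Abcg1), 0.40 to 0.47 (Abcg5), -0.28 to -0.12 (Abcb4), -0.019 to 0.047 (Abcb1a) and 0.097 to 0.15 (Abcc2), with 3033 to 3722 features and 1 to 3 members called. The SY minus TP ranges were -0.40 to -0.32 (Abcg1), 0.19 to 0.30 (Abcb1a), 0.40 to 0.62 (Abcb4) and -0.026 to 0.13 (Abcg5), with 43 features called without SY521RL, 1249 without SY518Z, and 0 to 3 members. Of the pairs, 0 to 5 were called (6 to 8 at an unadjusted p under 0.05), and Abcg1 minus Abcb4 ranged from -0.084 to 0.11, turning sign also when centred (9.90e-05) and on first arrays (0.0097). Crot turned sign in SY mice alone (0.20). The causes were not tested. No paired analysis was possible because treated mice carry no numbers shared with control mice. Rounding of the folds to 1 decimal and 8 mice limit what can be seen.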
